A study of Mus musculus with 26 samples.

Results

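Potassium channel genes, the rows of the deposited expression table whose symbol starts with Kcn and a further letter, made up 96 of its 37450 rows. They carry 94 symbols in 21 subfamilies, because Kcnh8 and Kcnb2 are each listed under 2 gene IDs. Of these rows, 69 encode pore-forming subunits, 10 encode electrically silent subunits that modify other channels, and 17 encode auxiliary subunits or regulators. RNA depleted of ribosomal RNA was sequenced on 4 days of a culture that leads from mouse embryonic stem (ES) cells to spinal motor neurons. Each day has 1 library, with no replicates, and these are 4 of the 26 samples of the series. Day 0 is untreated ES cells of the line labelled HBG3. Day 4 is motor neuron progenitors, also labelled HBG3, that had received 1 uM retinoic acid and 0.25 uM SAG, a Hedgehog agonist, on day 2. Days 5 and 6 are cells called postmitotic motor neurons, of the line labelled iCre, with the same retinoic acid and SAG treatment and with DAPT, a Notch pathway inhibitor, at 5 uM from day 4. A second label names Ainv15 cells for all 4 samples. By the first label the step from day 4 to day 5 is also a change of line, and DAPT is added in the same step. The day, the line as labelled and DAPT cannot be told apart there.

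Potassium channels let potassium leave the cell and so set the resting potential, end each action potential and pace repetitive firing. Voltage-gated (Kv) channels open on depolarisation, inward rectifiers (Kir, the Kcnj genes) pass current near rest, K2P channels (the Kcnk genes) carry leak current, and calcium-activated channels follow spikes with an afterhyperpolarisation. In motor neurons, leak, Kv2, M-type and small-conductance (SK) currents are known to shape excitability and firing rate. Levels are given as FPKM, sequenced fragments relative to a gene's length and the library's total, so that levels of genes can be compared.

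Few members were expressed early, and most of those that were expressed came late. The summed level of all 96 rows was 28.5 FPKM on day 0, 30.5 on day 4, 78.1 on day 5 and 134.9 on day 6. The median row stood at 0.0446, 0.0635, 0.122 and 0.213 FPKM on these days. A threshold of 1 FPKM was reached on at least 1 day by 33 rows, 34.4% of the family, against 33.7% of all rows in the table. Above it stood 4 rows on day 0, 8 on day 4, 13 on day 5 and 25 on day 6. Over all rows the same share stayed nearly level, at 27.1%, 27.9%, 28.1% and 27.9%.

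The members reached 1 FPKM later than most genes of the table. Of the 33 rows that reached 1 FPKM, 4 did so on day 0 (12.1%), 6 first on day 4 (18.2%), 10 on day 5 (30.3%) and 13 on day 6 (39.4%). This order turns with the threshold. At 0.5 FPKM 14 members were first on day 0, 7 on day 4, 18 on day 5 and 8 on day 6. The shares over all genes were not counted at 0.5 FPKM. Among the 12618 rows of the whole table that reached 1 FPKM, 80.4% did so on day 0, 10.6% on day 4, 5.59% on day 5 and 3.42% on day 6. Counted over all rows, the background shares are 27.1%, 3.57%, 1.88% and 1.15% for first expression on days 0, 4, 5 and 6. The family's own shares of its 96 rows were 4.17%, 6.25%, 10.4% and 13.5%. The highest value fell on day 6 in 22 of the 33 rows (66.7%), against 26.5% of all rows that reached 1 FPKM. In 20 of the 33 day 5 was above days 0 and 4 and day 6 above day 5, an order that was not counted over all genes. The 13 rows first at 1 FPKM on day 6 were highest on that day by definition, which bears on both counts. With 1 library per day these shares have no replicate error and were not tested.

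**Figure D1:**
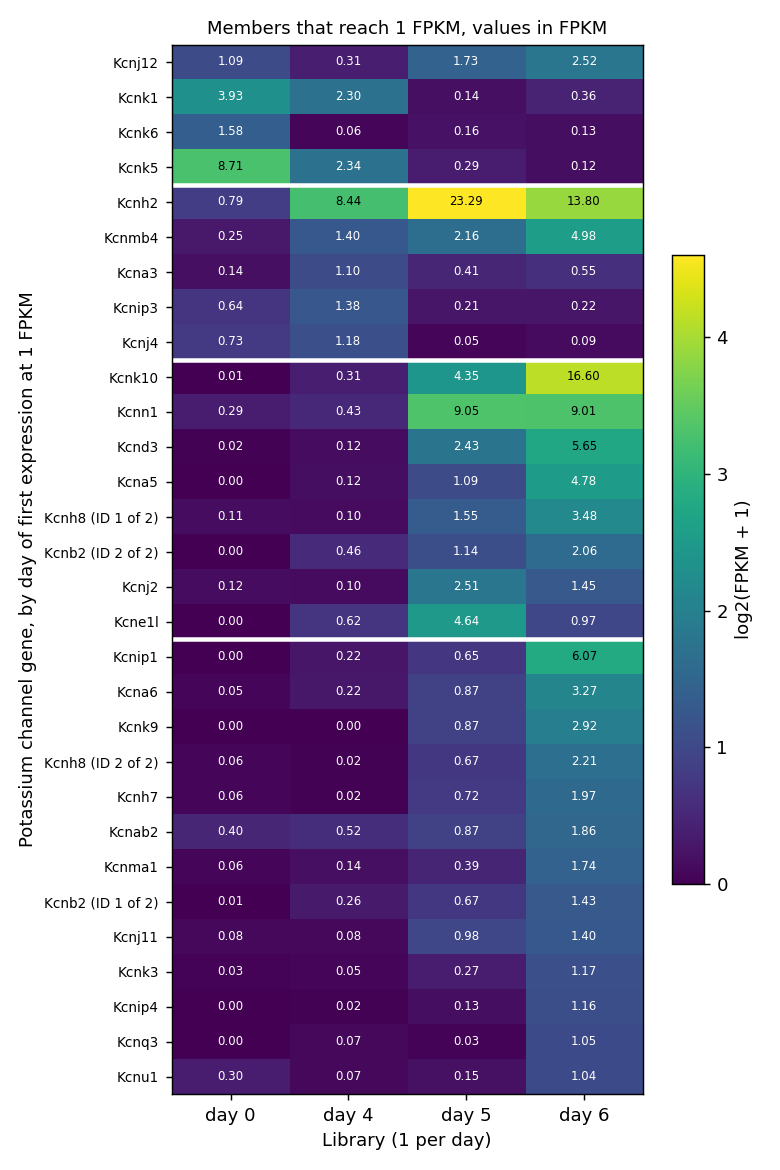
FPKM of 30 of the 33 rows that reached 1 FPKM, in 4 columns for the libraries of days 0, 4, 5 and 6, with colour for log2(FPKM + 1) and white lines between the days of first expression. The 4 rows at the top were already above 1 FPKM in ES cells. The rows of the lowest block first reached 1 FPKM on day 6 and so are highest there by definition. The blocks between are mixed, with Kcnk10 highest on day 6 at 16.6 FPKM and Kcnh2 on day 5 at 23.3 FPKM.

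**Figure D2:**
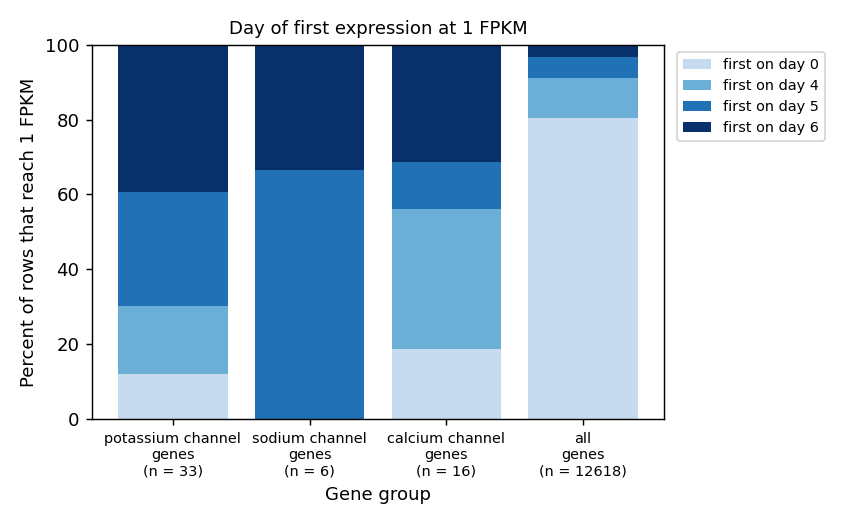
Percent of rows that first reached 1 FPKM on each day, stacked to 100, for potassium channel genes (33 rows), sodium channel genes (6), calcium channel genes (16) and all genes (12618). Day 0 makes up 12.1% of the potassium channel bar and 80.4% of the bar for all genes.

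The K2P genes exchanged one set of members for another. In ES cells 3 of the 14 Kcnk rows stood above 1 FPKM. Kcnk5 (TASK-2), an alkali-activated leak channel of epithelia, was listed at 8.71 FPKM on day 0, 2.34 on day 4, 0.292 on day 5 and 0.121 on day 6. It was the highest potassium channel gene of ES cells, with 30.6% of the family's summed level there. Kcnk1 (TWIK-1), a weakly conducting leak channel, stood at 3.93, 2.30, 0.142 and 0.357 FPKM on these days. Kcnk6 (TWIK-2), its close relative, stood at 1.58, 0.0618, 0.162 and 0.130 FPKM. All 3 were below 1 FPKM on days 5 and 6, and Kcnk6 was so already on day 4.

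Another 3 Kcnk genes took over in neurons. Kcnk10 (TREK-2), a leak channel gated by stretch, lipids and temperature, stood at 0.0123 FPKM on day 0, 0.309 on day 4, 4.35 on day 5 and 16.6 on day 6. Kcnk9 (TASK-3), an acid-sensitive leak channel, was listed at 0 on days 0 and 4, at 0.871 FPKM on day 5 and at 2.92 on day 6. Kcnk3 (TASK-1), with which it can form a joint channel and which is known from motor neurons, stood at 0.0322, 0.0476, 0.270 and 1.17 FPKM. In sum the Kcnk rows came to 14.6, 5.14, 6.32 and 21.8 FPKM, so that the total on day 6 was above that of ES cells with other genes in the lead. The other 8 Kcnk rows stayed below 1 FPKM, among them Kcnk2 (TREK-1) at 0.210 FPKM or less, and Kcnk15 and Kcnk18 were listed at 0 in all 4 libraries.

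**Figure D3:**
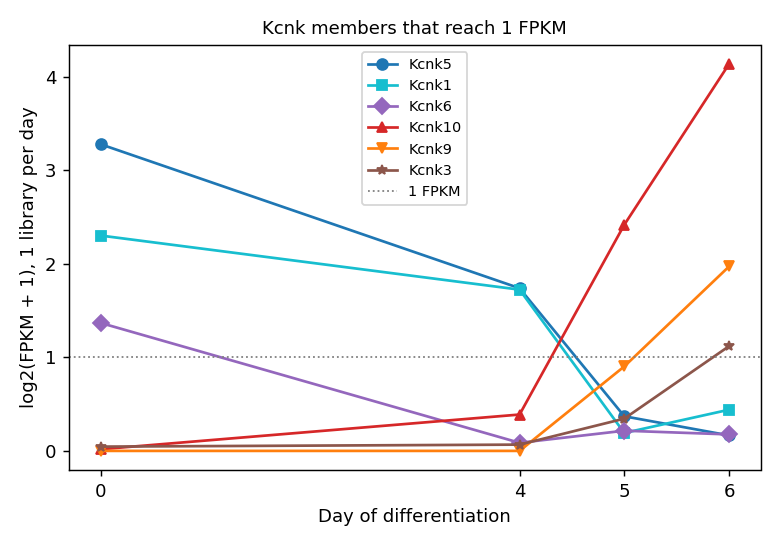
log2(FPKM + 1) of the 6 Kcnk genes that reached 1 FPKM, by day of differentiation, with 1 library per day and a dotted line at 1 FPKM. Kcnk5, Kcnk1 and Kcnk6 lie above the line on day 0 and below it on days 5 and 6, where Kcnk10 is the highest.

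The promoters of genes that moved in opposite directions are shown to let their base composition be compared. They are the 250 bases before the start, from RefSeq with build GRCm38.p6, and capitals mark CpG dinucleotides, the sites of DNA methylation. The window of Kcnk5 lies at chr14:20181783-20182032 on the minus strand, that of Kcnk1 at chr8:125994852-125995101 on the plus strand, and that of Kcnk10 at chr12:98578214-98578463 on the minus strand. The windows of 4 other genes described further on follow them: Kcnh2 at chr5:24329592-24329841 (minus), Kcnn1 at chr8:70863259-70863508 (minus), Kcnd3 at chr3:105451640-105451889 (plus) and Kcna5 at chr6:126535556-126535805 (minus).
Kcnk5: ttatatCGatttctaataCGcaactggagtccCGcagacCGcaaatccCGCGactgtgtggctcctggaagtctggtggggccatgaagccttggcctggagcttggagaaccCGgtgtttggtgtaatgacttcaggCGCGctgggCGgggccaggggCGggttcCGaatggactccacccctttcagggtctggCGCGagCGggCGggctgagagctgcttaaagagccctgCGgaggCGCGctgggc
Kcnk1: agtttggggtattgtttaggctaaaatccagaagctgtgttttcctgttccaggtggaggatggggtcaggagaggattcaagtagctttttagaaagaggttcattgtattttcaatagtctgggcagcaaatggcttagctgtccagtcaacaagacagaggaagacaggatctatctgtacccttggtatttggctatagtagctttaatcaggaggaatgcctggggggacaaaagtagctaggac
Kcnk10: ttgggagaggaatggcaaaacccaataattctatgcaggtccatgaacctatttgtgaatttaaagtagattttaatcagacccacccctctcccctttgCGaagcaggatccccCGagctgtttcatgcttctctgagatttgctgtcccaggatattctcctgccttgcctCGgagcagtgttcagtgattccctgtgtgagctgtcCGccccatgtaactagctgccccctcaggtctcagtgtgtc
Kcnh2: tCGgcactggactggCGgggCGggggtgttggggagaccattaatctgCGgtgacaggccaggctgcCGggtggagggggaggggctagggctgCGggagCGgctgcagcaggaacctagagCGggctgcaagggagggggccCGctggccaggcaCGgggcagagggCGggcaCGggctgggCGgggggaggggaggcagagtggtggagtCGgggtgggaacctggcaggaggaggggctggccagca
Kcnn1: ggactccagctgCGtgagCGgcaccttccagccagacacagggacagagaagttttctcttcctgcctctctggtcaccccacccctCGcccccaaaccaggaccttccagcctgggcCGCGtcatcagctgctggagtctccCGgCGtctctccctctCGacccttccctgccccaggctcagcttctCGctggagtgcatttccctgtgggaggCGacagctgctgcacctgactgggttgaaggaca
Kcnd3: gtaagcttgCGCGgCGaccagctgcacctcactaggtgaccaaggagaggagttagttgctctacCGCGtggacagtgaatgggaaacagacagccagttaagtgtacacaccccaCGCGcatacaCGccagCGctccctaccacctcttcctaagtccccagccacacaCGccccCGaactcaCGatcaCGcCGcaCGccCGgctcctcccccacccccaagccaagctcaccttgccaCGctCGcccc
Kcna5: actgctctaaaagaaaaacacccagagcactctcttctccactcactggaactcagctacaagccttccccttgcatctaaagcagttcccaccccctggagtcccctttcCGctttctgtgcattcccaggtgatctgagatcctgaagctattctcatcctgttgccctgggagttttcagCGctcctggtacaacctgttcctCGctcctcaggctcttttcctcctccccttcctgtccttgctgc
These windows ran from no CpG in Kcnk1 to 19 in Kcnk5. Kcnk10, which was higher in both later steps, had 4 CpG, Kcna5 had 3, Kcnn1 10, Kcnh2 14 and Kcnd3 18. Neither the genes that were lower on later days nor those that were higher shared one level of CpG. Where a gene has more than 1 window in the table, as Kcnk10 and Kcnn1 do with 2 each, the one farthest upstream is shown, and which start was in use in these cells was not measured.

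A promoter window was found for 69 of the 94 symbols, 15 of them with more than 1. The median window held 8 CpG, against 10 over 17492 protein-coding genes. For the 21 genes with a window that reached 1 FPKM the median was 14, and for the 48 below it was 7. The GC box GGGCGG, a site of Sp factors, was present on either strand in 34 of the 69 windows (49.3%), against 42.7% of all protein-coding genes. The TATA box TATAAA was found in 2 (2.90%, against 12.4%), and the E-box CAGCTG, a site of basic helix-loop-helix factors, in 16 (23.2%, against 11.6%). ATCAAT, the core bound by Onecut factors, was found in 6 (8.70%, against 6.25%), among them Kcnip1 and Kcnip4. The homeodomain core TAATTA was found in none, against 4.46%, and neither was RE1, the site of the repressor Rest, against 0.0629%. A second E-box, CATATG, was found in 1 (1.45%, against 2.99%). All were searched on both strands, both E-boxes are forms of CANNTG, and no motif of 6 letters contains another. These shares describe the letters of a short window only.

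Kcnq3 encodes a subunit of the M-channel, a slow brake on repetitive firing. It was listed at 0 on day 0 and at 0.0727, 0.0276 and 1.05 FPKM on days 4, 5 and 6, so that it passed 1 FPKM on day 6 only.

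Of the ether-a-go-go genes, Kcnh2 was the earliest. Kcnh2, which encodes ERG1, a channel that resists premature firing and repolarises heart muscle, stood at 0.794 FPKM on day 0, 8.44 on day 4, 23.3 on day 5 and 13.8 on day 6. It was the highest potassium channel gene of progenitors, with 27.6% of the family's sum on day 4, and again on day 5 with 29.8%. Kcnh7 (ERG3) stood at 0.0612, 0.0238, 0.718 and 1.97 FPKM and so followed later at a lower level. Kcnh8, of the ELK branch, stood at 0.106, 0.0978, 1.55 and 3.48 FPKM under 1 gene ID and at 0.0595, 0.0232, 0.672 and 2.21 FPKM under the other. Both entries moved alike, and reads may be split between them, so the level of Kcnh8 is uncertain. The other 5 Kcnh rows stayed below 1 FPKM, with Kcnh1 highest at 0.688 FPKM on day 5.

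Kv1 to Kv4 genes appeared mostly on days 5 and 6. Kcnd3, which encodes a Kv4 subunit of the transient A-type current, stood at 0.0162 FPKM on day 0, 0.118 on day 4, 2.43 on day 5 and 5.65 on day 6. The other Kv4 genes were above Kcnd3 on day 0 and below it on days 5 and 6, with Kcnd2 at 0.568 FPKM or less and Kcnd1 at 0.555 or less. Of the Kv1 genes, Kcna5 was listed at 0 on day 0 and stood at 0.122, 1.09 and 4.78 FPKM on days 4, 5 and 6. Kcna6 stood at 0.0456, 0.223, 0.871 and 3.27 FPKM. Kcna3 was highest on day 4, at 1.10 FPKM, with 0.141 on day 0, 0.411 on day 5 and 0.546 on day 6. Kcna1 and Kcna2, the Kv1 subunits found beside the nodes of myelinated axons, stayed at or below 0.118 and 0.197 FPKM.

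Gene order gives a close comparison within the Kv1 genes. In the RefSeq order of GRCm38.p6, Kcna5, Kcna1 and Kcna6 follow one another on chromosome 6 with no protein-coding gene between them. On day 6 the outer genes of this cluster stood at 4.78 and 3.27 FPKM and the middle one, Kcna1, at 0.118. The second Kv1 cluster, Kcna3, Kcna2 and Kcna10 on chromosome 3, stood at 0.546, 0.197 and 0 FPKM on day 6. Of other adjacent pairs, some differed on day 6 and some were both low on that day. Kcnip1 stood at 6.07 FPKM on day 6 and the adjacent Kcnmb1 at 0.0148, and Kcnj2 stood at 1.45 FPKM while the adjacent Kcnj16 was listed at 0. The pairs Kcnj9 and Kcnj10, Kcnk5 and Kcnk16, Kcnj6 and Kcnj15, and Kcnj5 and Kcnj1 were all at or below 0.445 FPKM on day 6. On day 0 Kcnk5 stood at 8.71 FPKM while Kcnk16 was listed at 0.

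Kcnb2, a gene of the Kv2 channels, was listed at 0.011, 0.262, 0.670 and 1.43 FPKM under 1 gene ID, and at 0, 0.456, 1.14 and 2.06 under the other. Both entries were highest on day 6, and reads may be split between them as for Kcnh8. Kcnc1, Kcnc2 and Kcnc4, of the Kv3 genes that allow fast spiking, stayed at or below 0.608 FPKM.

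Inward rectifiers followed different courses. Kcnj2, which encodes the strong inward rectifier Kir2.1, stood at 0.115 FPKM on day 0, 0.102 on day 4, 2.51 on day 5 and 1.45 on day 6. Kcnj12, of the same Kir2 group, was low in progenitors, with 1.09, 0.310, 1.73 and 2.52 FPKM on the 4 days. Kcnj4, also of this group, was highest in progenitors, with 0.725, 1.18, 0.0536 and 0.0928 FPKM. Kcnj4 and Kcnj12 thus lay on opposite sides on day 4. Kcnj11, the pore of the ATP-sensitive channel, stood at 0.0768, 0.0775, 0.983 and 1.40 FPKM, while its regulatory partner Abcc8 stood at 0.614 FPKM or less. The G protein-gated genes Kcnj3, Kcnj5, Kcnj6 and Kcnj9 stayed at or below 0.445 FPKM, and Kcnj10, a channel of astrocytes, at or below 0.114.

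Calcium-activated channels were led on days 5 and 6 by 1 gene of the SK group. Kcnn1 (SK1) stood at 0.293 FPKM on day 0, 0.432 on day 4, 9.05 on day 5 and 9.01 on day 6. Kcnn2, another SK gene, was above Kcnn1 at first, with 0.728, 0.515, 0.159 and 0.632 FPKM on the 4 days. Kcnn3 stood at 0.488 FPKM on day 6, and Kcnn4 was listed at 0 there. Kcnma1, the pore of the large-conductance (BK) channel, stood at 0.0622, 0.145, 0.388 and 1.74 FPKM. Its relative Kcnu1, known from sperm, stood at 0.298, 0.0652, 0.151 and 1.05 FPKM.

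Auxiliary subunits included the member with the largest difference between days 5 and 6 on log2(FPKM + 1). Kcnip1 encodes a calcium-binding partner of Kv4 channels and was listed at 0, 0.218, 0.647 and 6.07 FPKM on days 0, 4, 5 and 6. It was thus high on day 6 only. Kcnip4, of the same group, was listed at 0, 0.0193, 0.126 and 1.16 FPKM. Kcnip3, which is also known as the transcriptional repressor DREAM, was highest in progenitors, with 0.642, 1.38, 0.207 and 0.215 FPKM. Kcnmb4, the neuronal BK beta subunit, stood at 0.246, 1.40, 2.16 and 4.98 FPKM and was above the BK pore gene on each day. Kcne1l, also called Kcne5, was confined to day 5 at this threshold, with 0, 0.621, 4.64 and 0.974 FPKM. Kcnab2, a Kv beta subunit, stood at 0.402, 0.522, 0.875 and 1.86 FPKM.

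**Figure D4:**
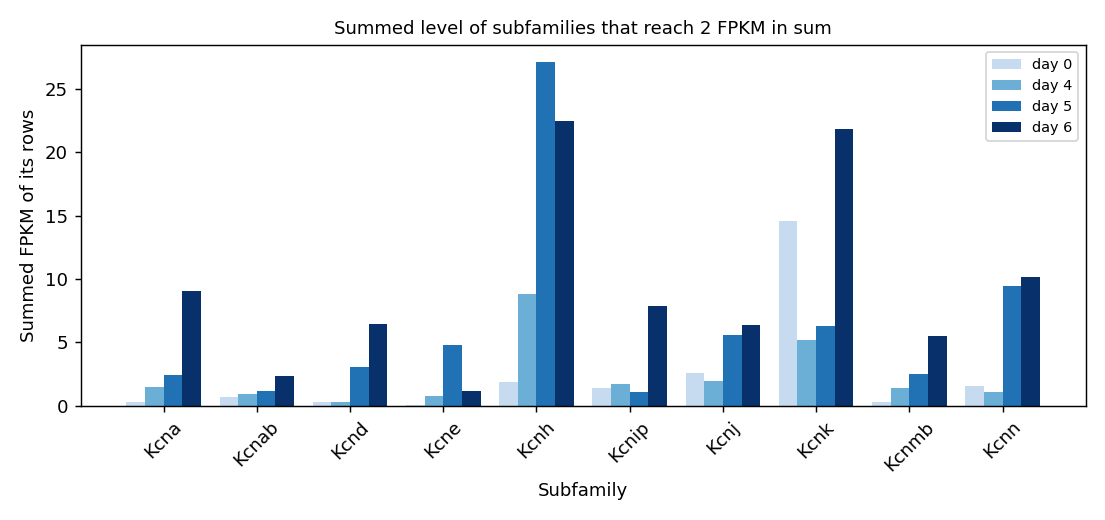
Summed FPKM of 10 subfamilies whose sum reached 2 FPKM on some day, in bars for days 0, 4, 5 and 6. Kcnk leads on day 0 with 14.6 FPKM, Kcnh on days 4 and 5 with 8.81 and 27.2, and Kcnk stands at 21.8 on day 6.

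Summed by subfamily, the lead passed from Kcnk (14.6 FPKM on day 0) to Kcnh (8.81 on day 4 and 27.2 on day 5). On day 6 Kcnh stood at 22.5 FPKM and Kcnk at 21.8. All 10 silent subunit rows (Kcnf, Kcng, Kcns and Kcnv) stayed below 1 FPKM on all days, as did both sodium-activated Kcnt genes and Kcnrg. Of 69 pore rows 27 reached 1 FPKM, and of 17 auxiliary rows 6 did. Near the threshold, 7 rows had a highest value between 1 and 1.2 FPKM, among them Kcnu1, Kcnq3, Kcna3, Kcnip4, Kcnk3 and Kcnj4, and none lay between 0.8 and 1. A further 14 rows had a highest value between 0.5 and 1 FPKM, led by Kcnrg at 0.791. Of the 63 rows below 1 FPKM throughout, 5 were listed at 0 in all 4 libraries.

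Differences between days were taken on log2(FPKM + 1), which understates the change of low genes, for genes that reached 1 FPKM on at least one of the days compared, and are called at 2-fold. From ES cells to progenitors, 10 of the 96 rows could be compared. Kcnh2 alone was at least 2-fold higher on day 4, by 2.40 on the log2 scale, against 19.3% of 11482 genes, and ranked 286th from the top. With a pseudocount of 0.1 FPKM 3 members were higher, against 26.0% of all genes. Kcnk5 (−1.54) and Kcnk6 (−1.28) were at least 2-fold lower, against 11.9% of all genes. The members' median difference was 0.40 and that of all genes 0.23. Of the 10 rows 4 were at 1 FPKM or more on day 0, and the others entered through their level on day 4.

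From day 4 to day 5, 19 rows could be compared and 9 were at least 2-fold higher (47.4%), against 11.5% of 11339 genes. Among them were Kcnn1 (2.81), Kcnk10 (2.03), Kcne1l (1.80), Kcnj2 (1.67), Kcnd3 (1.62), Kcnh2 (1.36), 1 Kcnh8 entry (1.21) and Kcnj12 (1.06). Kcnn1 ranked 121st of all genes compared. At least 2-fold lower were 3 rows, Kcnk1 (−1.53), Kcnk5 (−1.37) and Kcnj4 (−1.05), or 15.8%, against 14.7% of all genes. The members' median was 0.89, against −0.11 for all genes. Of these 19 rows 8 were at 1 FPKM or more on day 4. The others entered through their level on day 5 and so had to be higher there, which also bears on the median. Of the 9 rows called higher only Kcnh2 was at 1 FPKM or more on day 4. The share of 47.4% thus rests mostly on rows that entered through day 5. The 3 lower rows were all at 1 FPKM or more on day 4.

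From day 5 to day 6, both labelled iCre, 26 rows could be compared. Of these, 6 were at least 2-fold higher (23.1%), against 6.57% of 11164 genes. Among them were Kcnip1 (2.10), Kcnk10 (1.72), Kcna5 (1.47), Kcna6 (1.19) and Kcnk9 (1.07), and Kcnip1 ranked 80th of all genes compared. Kcne1l was the 1 row at least 2-fold lower (−1.51), or 3.85%, against 6.19% of all genes. The members' median was 0.84, against −0.07. Of the 26 rows 13 were at 1 FPKM or more on day 5. The others entered through day 6 and so had to be higher there, Kcnip1, Kcna6 and Kcnk9 among them. Kcnk10 was called higher in both later steps. Kcnn1 differed by −0.01 between these days, and Kcnh2 by −0.71. This count depends on the pseudocount, since with 0.1 FPKM in place of 1 FPKM 18 of the 26 rows were at least 2-fold higher, against 10.1% of all genes.

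**Figure D5:**
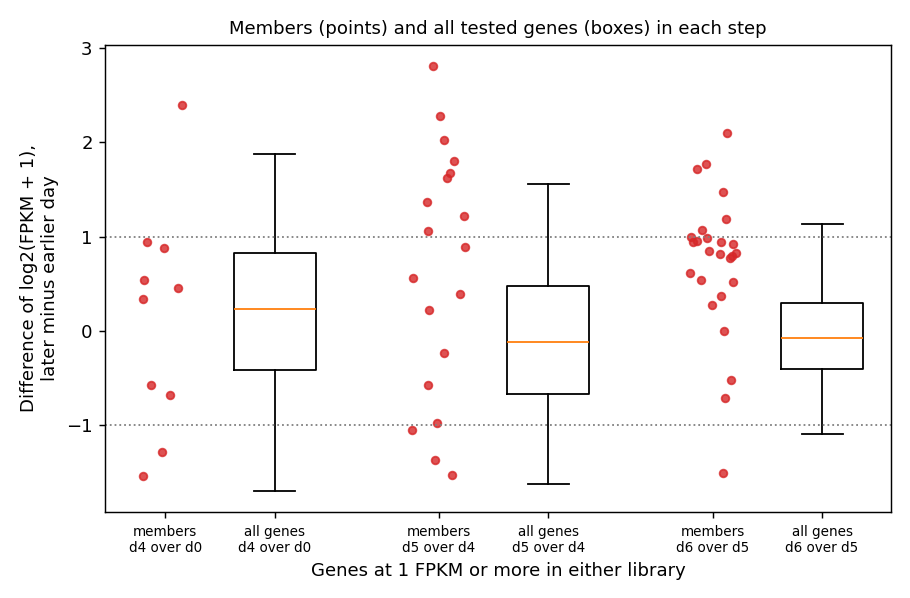
Differences of log2(FPKM + 1), later minus earlier day, for members (red points, spread sideways for sight) and all compared genes (boxes from the lower to the upper quartile with the median, whiskers at the 5th and 95th percentiles), with dotted lines at 2-fold. In the last step 6 of 26 members lie above the upper line and 1 below the lower line.

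Sodium and calcium channel genes give the nearest comparison. Of 15 sodium channel rows 6 reached 1 FPKM, 4 first on day 5 and 2 first on day 6, so none was above it in ES cells or progenitors. Scn3a, a sodium channel of developing neurons, stood at 42.3 FPKM on day 6, above every potassium channel gene, with 8.08 on day 5. Of 26 calcium channel rows, those with Cacna, Cacnb or Cacng symbols, 16 reached 1 FPKM, 9 of them by day 4. Both groups were taken by symbol only and counted by row, so that a gene with 2 gene IDs counts more than once. From day 5 to day 6, 4 of 6 sodium and 7 of 16 calcium channel rows were at least 2-fold higher, against 6.57% of all genes. The count for potassium channel rows was 6 of 26. On day 5, 4 of the sodium and 10 of the calcium rows were at 1 FPKM or more. The others compared entered through day 6. The differences between these groups were not tested.

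Genes whose products hold potassium channels in place were followed from a fixed list. Of 9 listed partners of Kv4, Kv2, BK and ATP-sensitive channels, 1 of 2 compared rows was higher on day 5 and 1 of 2 on day 6, against 11.5% and 6.57% of all genes. Dpp6, which carries Kv4 channels to the membrane, stood at 0.165, 0.338, 1.94 and 7.18 FPKM on the 4 days, and Amigo1, a Kv2 partner, at 0.798, 1.67, 1.38 and 2.61. Of the scaffold genes of the axon, 4 of 6 compared rows were higher on day 5 and none lower, and 3 of 7 were higher on day 6 and 1 lower, against 6.19% of all genes lower. Of the scaffold rows compared, 5 were at 1 FPKM or more on day 4 and 6 on day 5, and the others entered through the later day. Ank3 encodes ankyrin-G, which anchors M-channels at the axon initial segment, and stood at 3.20, 2.88, 11.7 and 24.9 FPKM. The repressor gene Rest, known to silence neuronal genes elsewhere, stood at 80.9, 6.91, 2.38 and 1.07 FPKM, and its part in the levels above was not tested.

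The labels were checked against marker genes. Pluripotency genes summed to 945.9 FPKM on day 0 and at most 2.33 later. Progenitor genes summed to 2.47, 246.0, 43.5 and 10.1 FPKM on days 0, 4, 5 and 6. All 5 of them were still at 1 FPKM or more on day 5. General neuron genes summed to 32.4, 22.4, 470.6 and 1217 FPKM, with 28.0 of the day 0 sum from 1 gene. The 6 motor neuron genes summed to 1.72, 10.9, 165.3 and 293.7 FPKM. From day 5 to day 6, 2 of these 6 were at least 2-fold higher and 1 lower, against 6.57% and 6.19% of all genes, so the sum does not describe each gene. In bulk samples fewer cells of a type and less RNA per cell cannot be told apart. The 6 epithelial and endodermal genes summed to 168.6, 11.9, 5.75 and 8.22 FPKM on the 4 days, with 4 of them at least 2-fold lower on day 4, as Kcnk5 was, and 1 higher. Astrocyte and oligodendrocyte genes summed to 8.996, 6.41, 28.3 and 11.6 FPKM, most of it Slc1a2 and Cnp, while Gfap and Aqp4 stayed at or below 0.0204 FPKM. Muscle and heart genes summed to 2.89 FPKM on day 0 and at most 1.11 later, and endothelial and blood genes to 14.1 and at most 1.87. Genes of other spinal neurons summed to 1.16, 1.24, 5.21 and 5.62 FPKM, with Lhx1 at 2.21 on day 5 and Sim1 at 3.24 on day 6. The part of these cells in the potassium channel levels was not tested.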

How the data were processed

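The values are FPKM per gene, made and deposited by the authors for 4 libraries of ribosome-depleted total RNA, 1 per day. No source used here names the program that made them. Tools listed in the submitters' processing notes, without a role, are STAR, MACS, HOMER 4.7.2 and Bowtie 0.12.7, and the mouse build listed is mm9. Reads per library are not given, so counting error is unknown. The lowest FPKM values fall as depth rises, so their ratios are only a rough guide to depth and run inversely to it. The commonest ratio of low FPKM was 1.04 for day 4 over day 5 (13.4% of 239 low genes). It was 1.32 for day 5 over day 6 (13.8% of 290) and 0.497 for day 0 over day 4 (5.06% of 237).

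Members were the rows matching the symbol rule. They and the gene lists were chosen with earlier results of these data known. Members that reached 1 FPKM are named, with all 4 values where they reached 5 FPKM or were called in a step, and those below are counted by subfamily, some by name. Differences of log2(FPKM + 1) were computed for all 37450 rows with Python 3.11.15, numpy 2.4.6 and pandas 2.3.3. The code of the calls was tested on simulated data without noise, which does not measure how reliable the calls of low genes are. No test between days was possible with 1 library each. A value of 0 can be a failed estimate. Gene IDs of 93 of the 96 rows were found in a table of current names. Peak and event lists of the series are in mm9 coordinates and, with no gene annotation of that build at hand, were not used here. Some members and list genes are counted in the totals and not reported here by name, and the subfamilies that hold such members are not drawn.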

Additional observations from a re-analysis of the deposited data

How the results depend on the processing

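The 22 called differences of single members kept their direction and call with a pseudocount of 0.1 FPKM and with no filter on low values. These 2 settings could not remove a call, by how they are built, so this is no check of the calls. After rescaling to a common median ratio, which could remove one, 21 of the 22 kept both. The exception was Kcnj4 from day 4 to day 5, at −0.97. The pseudocount of 0.1 FPKM moved counts of members, to 3 of 10 higher on day 4 (main count 1), against 26.0% of all genes. It moved them to 5 of 19 lower on day 5 (3), against 20.2% of all genes. On day 6 it gave 18 of 26 higher (6), against 10.1% of all genes. The cause is the construction of the scale, which weighs low values more. Rescaling, with median shifts of 0.24, −0.15 and −0.08 on the log2 scale, left the counts of members within 1.5 times, while over all genes from day 0 to day 4 it turned 2219 higher and 1366 lower into 1710 and 1812. First expression moved most with its threshold. At 0.5 FPKM, 14 members were first on day 0, 18 on day 5 and 8 on day 6. At 2 FPKM, 2 were first on day 0 and 1 on day 4. The shares over all genes were not counted at these thresholds. Leaving out Kcnh8 and Kcnb2, chosen after seeing the data, changed no count by more than 1.5 times, and neither did rescaling subfamily sums to day 6 change a sum by more than that. No paired analysis was possible because each day has 1 RNA library. Levels near 1 FPKM rest on few reads, and the planned count of peaks at members was not run.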

Other observations

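Cotransporters that set the chloride gradient were followed beside the channels. Slc12a5, the potassium chloride cotransporter of mature neurons, stood at 0.146, 0.832, 3.70 and 7.23 FPKM on days 0, 4, 5 and 6, and Slc12a2, which brings chloride in, at 9.40, 7.25, 7.04 and 4.83. On day 6 Slc12a5 was above Slc12a2, and on day 5 below it.

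Of the pacemaker channel genes, which carry an inward current at negative potentials, Hcn2, Hcn3 and Hcn4 were highest on day 6. Hcn3 stood at 0.504, 0.622, 3.02 and 5.50 FPKM, Hcn4 at 0.0334, 0.502, 2.33 and 4.23, and Hcn2 at 0.788, 0.810, 0.722 and 2.23. The 2 compared between days 4 and 5, Hcn3 and Hcn4, were called higher at 2-fold in the later library, against 11.5% of all genes. Both were below 1 FPKM on day 4 and entered through day 5, so that they had to be higher there. Of the 3 compared between days 5 and 6 none was called, against 6.57% of all genes higher and 6.19% lower.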
